A study of Rattus norvegicus with 20 samples.

Results

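The contractile smooth muscle genes examined here are 34 genes of the force-generating machinery of arterial smooth muscle, chosen by name: actin and myosin chains, the proteins that bind and order them, the enzymes that set myosin phosphorylation, the transcription factors that switch these genes on, and the adhesion proteins that anchor the filaments. Of the 34, 31 had a probe of that gene name on the array and all 31 were tested, among 16410 genes in all. Calponin 2 (Cnn2), synaptopodin 2 (Synpo2) and phosphoglucomutase 5 (Pgm5) had no probe under those names.

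Total RNA of mesenteric artery was hybridised to single-colour Agilent rat arrays, in 5 groups of 4 arrays. The sample titles name the mesenteric artery and biological replicates 1 to 4. They do not say which branches of the artery were taken or whether each array held RNA of 1 rat. The groups were WKY/Izm rats left untreated, WKY/Izm rats given the 2-kidney 1-clip operation (2K1C) or the 1-kidney 1-clip operation (1K1C), and untreated SHR/Izm and SHRSP/Izm rats. Every rat was labelled 6 weeks old, and the labels of the operated rats add a period of 3 weeks for the operation. The labels used here do not say whether 6 weeks is the age at operation or at sampling, so whether operated and untreated rats were sampled at the same age cannot be told. WKY is the normotensive strain, SHR the spontaneously hypertensive strain and SHRSP its stroke-prone derivative. A clip on a renal artery is a standard way to raise blood pressure, with the other kidney kept in 2K1C and removed in 1K1C; no sham-operated group was among the labels, and the sex of the rats and their blood pressure were not used here. The design sets inherited against operation-induced models, with untreated WKY as the control.

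Smooth muscle contracts when myosin light chain kinase, activated by calcium and calmodulin, phosphorylates the light chains of smooth muscle myosin, and relaxes when myosin phosphatase removes the phosphate. Most genes of this apparatus are switched on by serum response factor (SRF) bound to CArG boxes in their control regions together with its coactivator myocardin, and the set is used as the mark of the differentiated, contractile state. In the resistance arteries of the mesentery this layer sets vessel calibre and so peripheral resistance.

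Levels are log2 of the processed signal minus the 75th percentile of the same array, so a level of 0 is a spot as bright as that percentile and 1 unit is a doubling. Levels describe 1 probe across arrays and do not order genes by abundance. Of the 31 tested genes, 30 were well above background on all 20 arrays; myocardin (Myocd) was so on 19. Between 66.5% and 71.7% of the spots of an array were well above background, arrays of a group correlated at 0.934 to 0.995 over the tested genes, and the arrays lay on 3 slides: 2K1C on 1, 1K1C and untreated WKY on the next, SHR and SHRSP on the last. Arrays of the same slide are compared in 2 cases, SHRSP with SHR and 1K1C with untreated WKY, and there each group had its own row, so that group and slide, or group and row, cannot be told apart in any comparison.

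Several arrays stood apart in the contractile genes. Each gene was centred on its mean over 20 arrays, and the median over the 31 genes was taken in each array. In 1K1C these medians were -0.91, -2.55, -0.024 and 0.10 for replicates 1 to 4, the order used for all values listed by group from here on. In SHR they were -1.03, 0.55, 0.58 and 0.74. Replicate 2 of 1K1C was the lowest of all 20 arrays, and was the lowest array for 27 of the 31 genes; SHR replicate 1 and 1K1C replicate 1 came next. The medians were 0.73, 0.59, 0.52 and -0.50 in 2K1C, -0.45, -0.12, 0.30 and -0.24 in untreated WKY and 0.30, 0.23, 0.87 and -0.16 in SHRSP, where replicate 4 of 2K1C and replicate 1 of untreated WKY lay lowest. The spread of this median within groups (pooled SD 0.745) was larger than the difference between any group and untreated WKY.

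**Figure D1:**
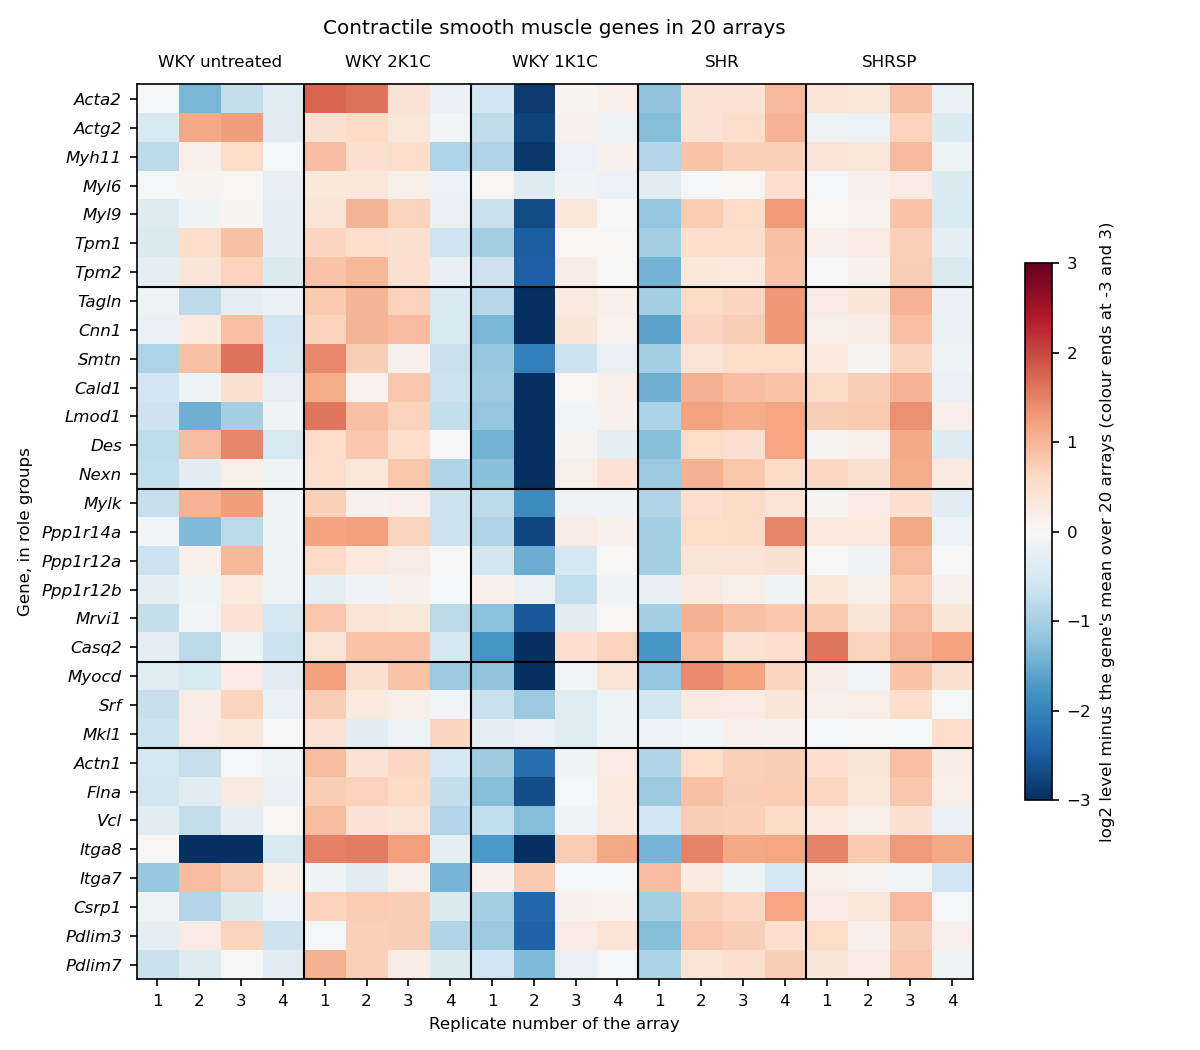
Centred log2 levels (colour, each gene minus its mean over 20 arrays) of the 31 contractile genes (rows, in role groups separated by lines: filament chains, actin-binding proteins, regulators, transcription factors, adhesion proteins) in 20 arrays (columns, replicates 1 to 4 of each group). The column of 1K1C replicate 2 is dark blue for most genes, the columns of SHR replicate 1 and 1K1C replicate 1 are paler blue, and in untreated WKY replicates 2 and 3 have opposite colours for Actg2, Des, Smtn and Mylk on one side and Acta2, Lmod1 and Itga8 on the other.

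Markers of other cells moved with these arrays. White adipocyte markers, of which 8 of 8 were tested and which include adiponectin and leptin, had centred medians of 0.94, 1.26, 0.35 and 0.033 in 1K1C and 1.17, -0.22, -0.44 and -0.45 in SHR, so that the 3 arrays lowest in contractile genes, 1K1C replicates 1 and 2 and SHR replicate 1, were the 3 highest in fat cell markers. In 2K1C the medians were -1.15, -0.52, -0.25 and -0.79, in untreated WKY -0.69, 0.78, 0.69 and -0.015 and in SHRSP -0.14, 0.20, -0.19 and -0.68. The summed signal of these markers, relative to the percentile, ran from 300 to 681 in 1K1C, 124 to 240 in 2K1C, 184 to 507 in untreated WKY, 220 to 601 in SHR and 195 to 358 in SHRSP. Markers of mesothelium, the cells that line the mesentery, had 4 of 6 members tested (Upk3b and Lrrn4 were too dim), with medians of -0.60, 2.10, -0.91 and -0.067 in 1K1C, 2.83, -0.56, -0.49 and -0.53 in SHR and -1.03, 2.60, 1.65 and -0.34 in untreated WKY. High values stood in 1K1C replicate 2, SHR replicate 1 and untreated WKY replicates 2 and 3, while 2K1C ranged from -1.36 to 0.53 and SHRSP from -1.12 to -0.23. The summed mesothelium signal ran from 0.17 to 5.03 in 1K1C, 0.15 to 10.5 in SHR, 0.22 to 7.20 in untreated WKY, 0.11 to 1.45 in 2K1C and 0.20 to 0.68 in SHRSP. The part of either cell type in the results below was not tested. In bulk RNA, fewer smooth muscle cells and less of these RNAs per cell cannot be told apart.

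**Figure D2:**
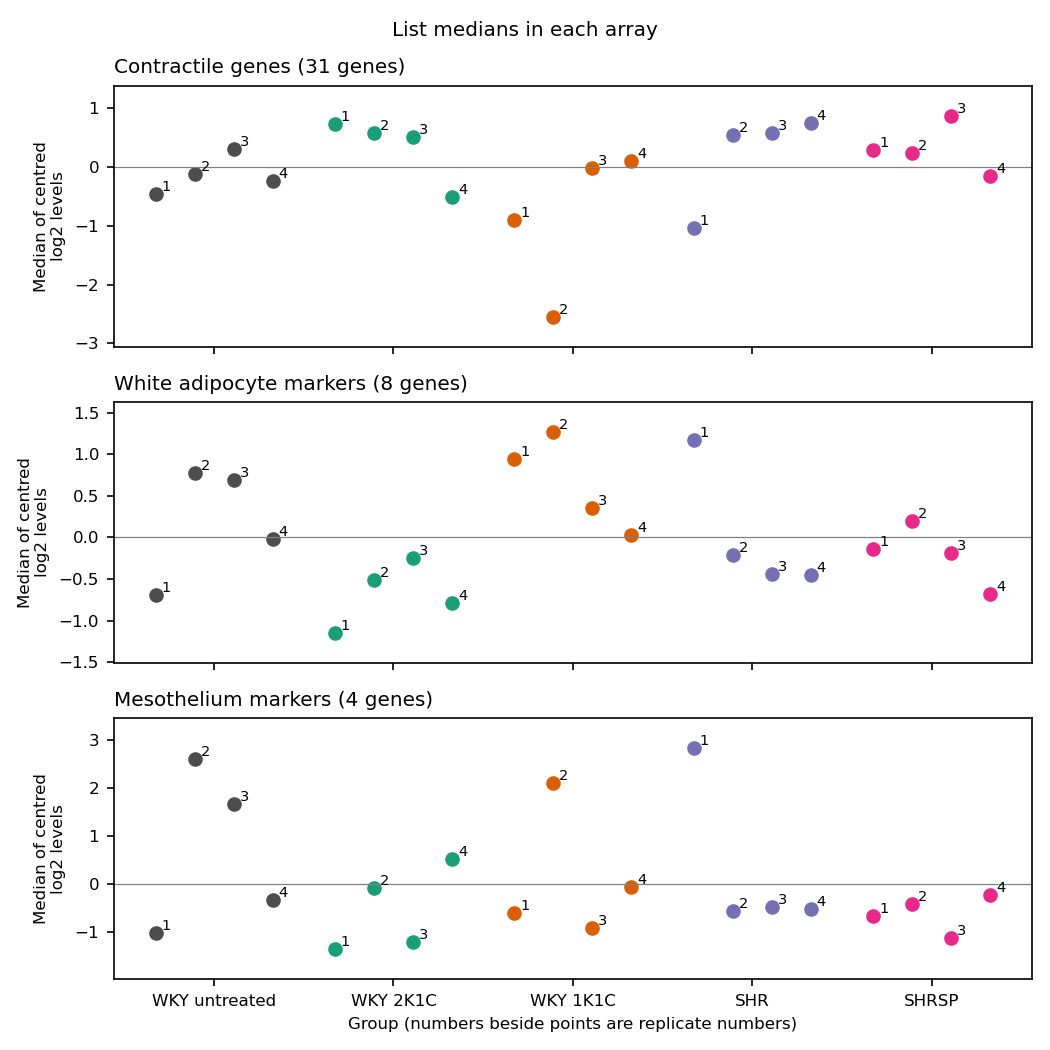
Median of centred log2 levels (y axis) over the 31 contractile genes, 8 white adipocyte markers and 4 mesothelium markers in each array (points, numbered by replicate), by group (x axis). The lowest contractile points, 1K1C replicate 2 at -2.55 and SHR replicate 1 at -1.03, have the highest adipocyte points, 1.26 and 1.17.

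Immune cell markers were high in other arrays. Macrophage markers (5 of 6 tested; Adgre1 had no probe) and lymphocyte markers (3 of 6 tested; Cd3e, Cd79a and Cd8a were too dim) were highest of their groups in 2K1C replicate 4, with medians of 1.45 and 6.38, and in SHRSP replicate 4, with 0.79 and 4.59. These were the arrays lowest in contractile genes in their groups, with medians of -0.50 and -0.16. The macrophage median was also the highest of its group in 1K1C replicate 2 (1.25) and SHR replicate 1 (0.83). The summed macrophage signal ran from 21.8 to 28.4 in untreated WKY, 17.7 to 30.4 in 1K1C, 13.4 to 82.5 in 2K1C, 18.8 to 30.7 in SHR and 11.3 to 57.4 in SHRSP. That of lymphocyte markers ran from 0.23 to 0.83, 0.30 to 0.57, 0.15 to 26.8, 0.21 to 1.22 and 0.21 to 9.02 in the same order. Their part in the results was not tested.

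Endothelium had 10 of 10 markers tested, with summed signals of 20.2 to 42.1 in untreated WKY, 24.8 to 47.9 in 1K1C, 31.3 to 39.1 in 2K1C, 34.5 to 39.7 in SHR and 28.7 to 55.4 in SHRSP. In striated muscle 7 of 12 were tested, all 5 myosin heavy chains (Myh1, Myh2, Myh4, Myh6 and Myh7) were too dim, and the summed signal was 1.77 to 2.77 over all 20 arrays. Markers of the pacemaker cells of gut muscle, 3 of 3 tested, had centred medians of -0.16, 0.42, 1.24 and 0.35 in untreated WKY. Over all 20 arrays the centred medians ran from -0.66 to 0.37 for fibroblasts (10 of 10 tested), -0.61 to 0.60 for pericytes and other mural cells (8 of 8) and -0.80 to 0.86 for lymphatic endothelium (3 of 4). They ran from -1.24 to 1.14 for brown adipocytes (6 of 8), highest in untreated WKY replicate 1, from -1.23 to 2.00 for nerve (7 of 8), highest in 2K1C replicate 1, and from -4.23 to 2.72 for intestine and pancreas (4 of 7), highest in SHRSP replicate 2.

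The contractile genes moved from array to array as a block. After the group means were removed, 25 of the 31 correlated above 0.8 with the median of the other members over the 20 arrays, against 1.72% of 16375 genes outside the list that had a value on every array; without 1K1C replicate 2 the figures were 23 and 1.54%. Filamin A (Flna) and Myh11 had the highest correlations, 0.98 and 0.98. Over the 465 pairs of members the median correlation was 0.83, and 44 pairs were negative. These correlations describe arrays that share the scaling, the slide and the make-up of each dissected sample, and they carry no test.

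Some members did not follow. Integrin alpha 7 (Itga7), a laminin receptor, had a correlation of -0.12, the coactivator Mkl1 (MRTF-A) -0.03, the myosin phosphatase subunit Ppp1r12b 0.16, the light chain Myl6 0.66, and integrin alpha 8 (Itga8) 0.72. Myl6 and Ppp1r12b had the smallest spread within groups (pooled SD 0.25 and 0.27 on the log2 scale), and Itga8 the largest, 1.58.

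**Figure D3:**
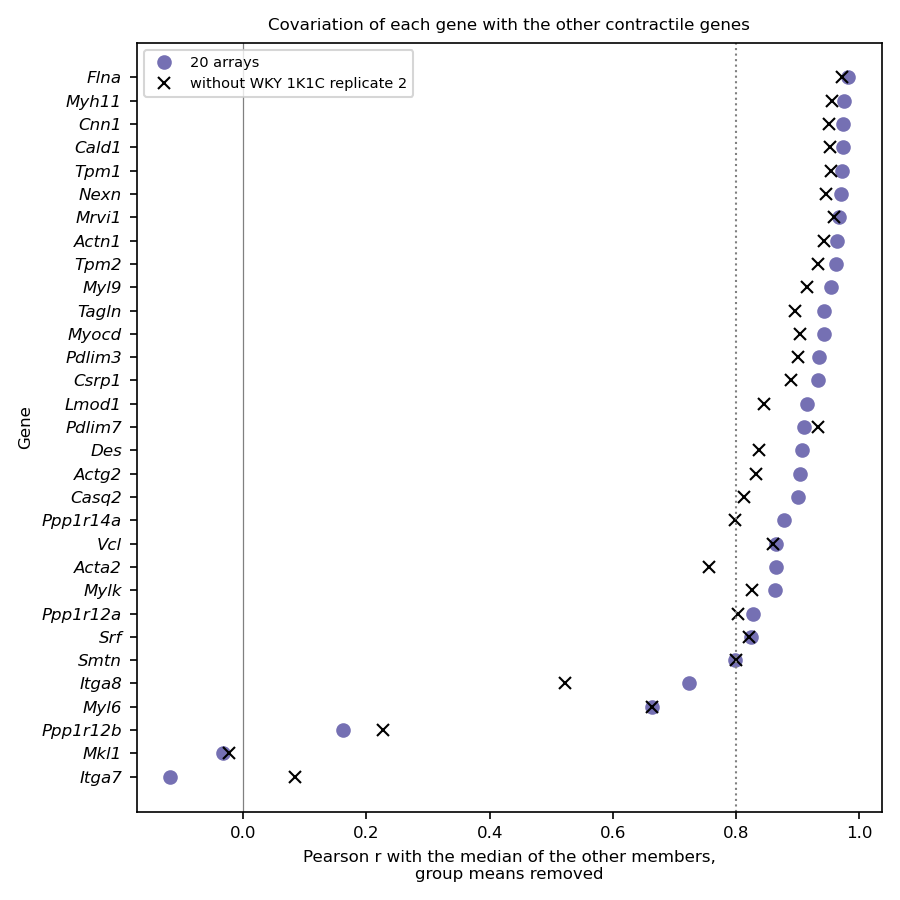
Pearson correlation of each of the 31 contractile genes (y axis) with the median of the other members over arrays after removing group means (x axis), over 20 arrays (filled points) and without 1K1C replicate 2 (crosses). Most genes lie above the dotted line at 0.8, and Itga7, Mkl1 and Ppp1r12b lie near 0.

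Across the comparisons the member genes leaned one way without single genes passing the test. With limma and adjustment over all 16410 genes, 0 of the 31 members were called at an adjusted p under 0.05 in any of 6 comparisons, and 0 by the F test over the 5 groups, which called 3.22% of all genes; 3 members (Lmod1, Itga8 and Mrvi1) had an unadjusted F-test p under 0.05, against 23.6% of all genes. The 4 comparisons with untreated WKY share those 4 control arrays.

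In SHR against untreated WKY, 24 of the 31 members lay above 0 (52.6% of all genes did) and their median difference was 0.47, where the median over all genes was 0.018. The test called 0 members, beside 1.85% of all genes (303), and 1 member had an unadjusted p under 0.05 (14% of all genes). Itga8 had the largest difference, 2.35 (SE 1.03, adjusted p = 0.316), followed by the actin nucleator leiomodin 1 (Lmod1) with 1.43 (SE 0.71, adjusted p = 0.379). At the other end stood Mylk at -0.23 and Actg2 at -0.22. White adipocyte markers lay below 0 in 7 of 8, with a median of -0.24, and their part was not tested. The median of the contractile genes depended on single arrays: it was 0.87 without SHR replicate 1 and 0.22, 0.27 and 0.27 without SHR replicates 2, 3 and 4. With both SHR replicate 1 and 1K1C replicate 2 left out, an alternative chosen because of their low values, 30 members lay above 0 and 3 were called, Csrp1, Itga8 and Lmod1. The share of all genes called in that setting is not given here, so the 3 cannot be set against a background.

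In SHRSP against untreated WKY, 26 members lay above 0 (50.5% of all genes) and the median difference was 0.41, against 0.0035 over all genes. Again 0 members were called, beside 2.39% of all genes (393). An unadjusted p under 0.05 was found for 4 members, Itga8, Lmod1, Casq2 and Ppp1r12b, against 16.7% of all genes. In 6 members, Itga8, Lmod1, Casq2, Actn1, Csrp1 and Nexn, every SHRSP array was above every untreated WKY array (19.4% of members, against 6.36% of all genes). The largest differences were 2.91 (SE 1.03, adjusted p = 0.162) for Itga8 and 1.60 (SE 0.76, adjusted p = 0.298) for Casq2, and the lowest -0.40 for Actg2 and -0.27 for Itga7. White adipocyte markers were 8 of 8 below 0 with a median of -0.36, and their part was not tested. Fitted on these 2 groups alone, 1 member was called, Casq2 (adjusted p = 0.0206), and the share of all genes called in that fit is not given here.

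In 2K1C against untreated WKY, 27 members lay above 0 (53.5% of all genes), with a median difference of 0.45 against 0.035 over all genes. No member was called, beside 0.0122% of all genes (2), and 2 members, Acta2 and Itga8, had an unadjusted p under 0.05 (22% of all genes). The largest differences were 2.73 (SE 1.03, adjusted p = 0.157) for Itga8 and 1.52 (SE 0.61, adjusted p = 0.173) for Acta2; the lowest were -0.59 for Itga7 and -0.28 for Mylk. White adipocyte markers were 8 of 8 below 0, with a median of -0.90, and their part was not tested. The contractile median was 0.79 without 2K1C replicate 4 and 0.29 without 2K1C replicate 1.

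1K1C had the opposite sign. Against untreated WKY 29 of 31 members lay below 0 and 2 above (65.4% of all genes lay above), the median difference was -0.62, and all genes together had a median of 0.099. The counts called were 0 of the members and 0% of all genes. An unadjusted p under 0.05 was found for 4 members, Des, Smtn, Mylk and Actg2 (9.1% of all genes). Desmin (Des) had the lowest difference, -1.56 (SE 0.68, adjusted p = 0.501), then Smtn with -1.29 and Cnn1 with -1.29. Only Itga8, at 0.69, and Itga7, at 0.043, lay above 0, and Itga7 turned below 0 under other scalings. Itga8 was at -0.84 without untreated WKY replicates 2 and 3 and at 1.80 without 1K1C replicate 2. White adipocyte markers were 8 of 8 above 0 with a median of 0.48, and their part was not tested. The contractile median depended on single arrays: it was -0.15 without 1K1C replicate 2, -0.96 without replicate 3 and -0.94 without replicate 4. With 1K1C replicate 2 and SHR replicate 1 both left out, 12 members lay above 0.

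The widest gap was between the operations. In 1K1C against 2K1C, 30 of the 31 members lay below 0 and 1 above (51.8% of all genes lay above), and the median difference was -1.22, against 0.015 over all genes, with 0 members called beside 0% of all genes. Here 19 members had an unadjusted p under 0.05 (61.3% of members, 21.5% of all genes), and the lowest adjusted p was 0.107, for Srf. Itga8 (-2.04 (SE 1.03, adjusted p = 0.26)), Lmod1 (-1.82 (SE 0.71, adjusted p = 0.147)) and Des (-1.74 (SE 0.68, adjusted p = 0.146)) had the largest differences, and Itga7 alone lay above 0, at 0.64. Srf was the 1 member whose 1K1C arrays were all below its 2K1C arrays (3.23% of members, 2.37% of all genes). White adipocyte markers ran the other way, 8 of 8 above 0 with a median of 1.31, and their part in the result was not tested. Without 1K1C replicate 2 the median difference of the contractile genes was -0.65, with Itga8 at -0.93, Lmod1 at -0.98 and Des at -1.01. Without 1K1C replicate 4, 2 members were called, Actn1 and Srf (-0.99, adjusted p = 0.0433 for Srf). The share of all genes called without that array is not given here.

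SHRSP against SHR gave the smallest differences. The median over the members was 0.098 (all genes -0.011), 22 lay above 0 (47.4% of all genes), and 0 were called beside 0.36% of all genes (59), with 0 members at an unadjusted p under 0.05 (3.56% of all genes). Casq2 was highest, 1.11 (SE 0.76, adjusted p = 1), then Itga8 at 0.57, while Myl9 was at -0.22 and Itga7 at -0.22. The median turned to -0.31 without SHR replicate 1 and to -0.090 without SHRSP replicate 3.

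**Figure D4:**
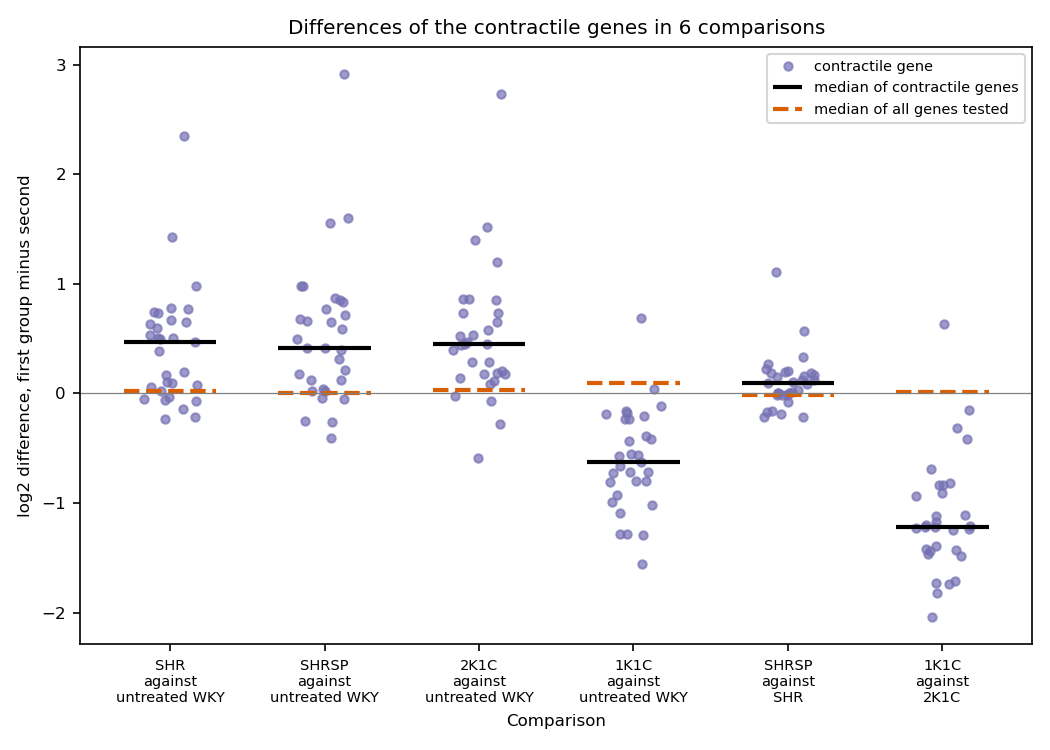
Log2 difference, first group minus second (y axis), of each of the 31 contractile genes (points, spread sideways for visibility) in 6 comparisons (x axis), with the median of the members (solid line) and of all 16410 genes tested (dashed line). The members' medians are 0.47, 0.41 and 0.45 in SHR, SHRSP and 2K1C and -0.62 in 1K1C against the shared untreated WKY arrays, and -1.22 in 1K1C against 2K1C.

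Among the filament chains (7 genes), the medians of the differences from untreated WKY were 0.10 in SHR, 0.042 in SHRSP, 0.28 in 2K1C and -0.79 in 1K1C. Acta2, the alpha-actin of vascular smooth muscle, read 3.58, 2.25, 2.89 and 3.25 in untreated WKY, 5.36, 5.24, 4.04 and 3.41 in 2K1C and 3.04, 0.73, 3.68 and 3.76 in 1K1C. In SHR its levels were 2.41, 4.05, 4.05 and 4.58, and in SHRSP 4.01, 3.96, 4.49 and 3.41. Replicates 1 and 2 of 2K1C were the highest and 1K1C replicate 2 the lowest, and every group overlapped untreated WKY. The 2K1C mean was 2.87-fold that of untreated WKY (4.51 ± 0.95 against 2.99 ± 0.57, SD, n = 4, adjusted p = 0.173).

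Actg2, the gamma-actin first described in the muscle of the gut, had another pattern: 6.54, 8.12, 8.25 and 6.65 in untreated WKY, 7.44, 7.58, 7.35 and 6.92 in 2K1C and 6.22, 4.21, 7.11 and 6.87 in 1K1C. It read 5.69, 7.44, 7.53 and 8.03 in SHR and 6.87, 6.82, 7.68 and 6.58 in SHRSP. Its highest values were in untreated WKY replicates 2 and 3, the arrays in which Acta2 was lowest for that group. The difference between 1K1C and untreated WKY was -1.29 (SE 0.58, adjusted p = 0.529).

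Myh11, the smooth muscle myosin heavy chain, read 5.02, 5.96, 6.34 and 5.75 in untreated WKY, 6.71, 6.29, 6.33 and 4.87 in 2K1C and 4.89, 2.91, 5.63 and 5.93 in 1K1C. Its levels were 4.93, 6.64, 6.52 and 6.50 in SHR and 6.17, 6.14, 6.77 and 5.63 in SHRSP. The range within SHR and within 1K1C exceeded any difference between group means. Of the 6 comparisons tested the largest difference was that of 1K1C against 2K1C, -1.21 (SE 0.57, adjusted p = 0.225), which was -0.57 without 1K1C replicate 2.

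Myl9, the regulatory light chain that the kinase phosphorylates, read 5.34, 5.60, 5.81 and 5.44 in untreated WKY, 6.12, 6.75, 6.41 and 5.50 in 2K1C and 5.06, 3.05, 6.05 and 5.73 in 1K1C, and 4.56, 6.49, 6.27 and 7.001 in SHR and 5.76, 5.83, 6.59 and 5.27 in SHRSP. Untreated WKY was tight and the low arrays of the other groups were those named above. The essential light chain Myl6, which most cells express, varied least: its group means lay between 7.67 and 7.99. Tropomyosins Tpm1 and Tpm2, which lie along the actin filament, had differences from untreated WKY of -1.02 and -0.79 in 1K1C and of 0.089 and 0.44 in 2K1C. Their other probes gave -1.11 and -1.002 in 1K1C but -0.085 and 0.00087 in 2K1C, so that no direction is given for 2K1C.

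**Figure D5:**
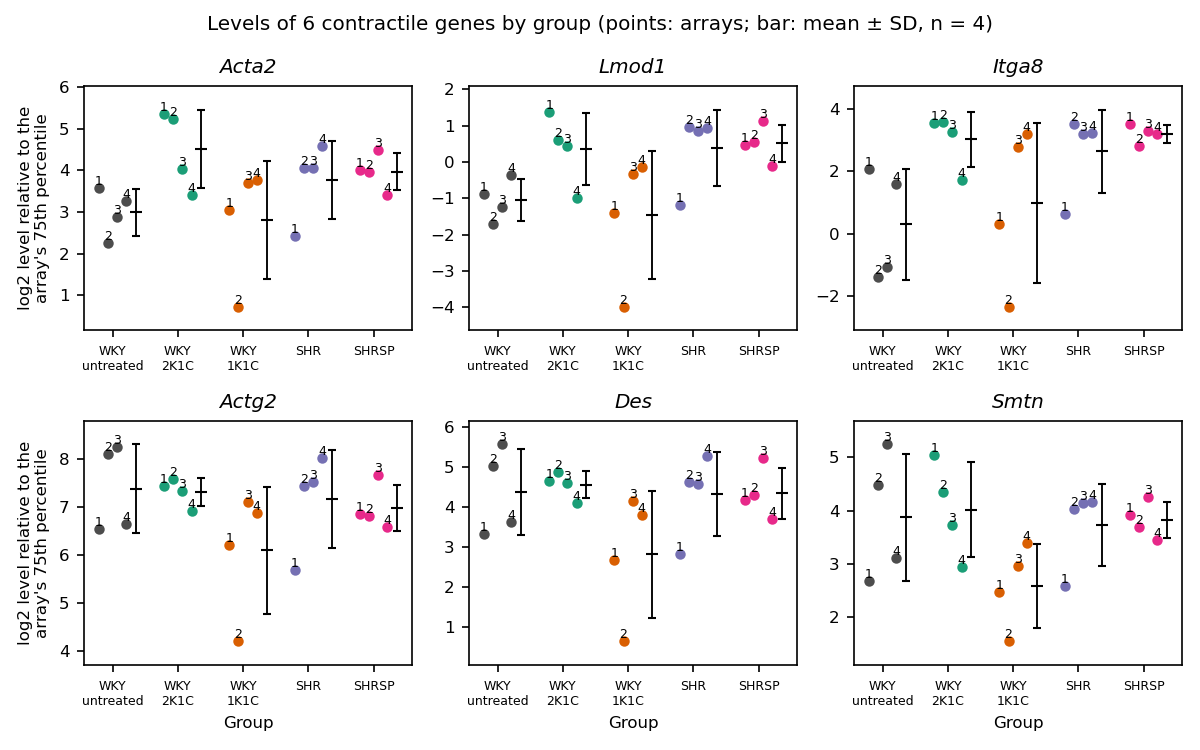
Log2 levels relative to the array's 75th percentile (y axis) of Acta2, Lmod1, Itga8, Actg2, Des and Smtn in 5 groups (x axis), with arrays as points numbered by replicate and bars for the mean ± SD (n = 4). In untreated WKY, replicates 2 and 3 are the high points of Actg2, Des and Smtn and the low points of Acta2, Lmod1 and Itga8, and 1K1C replicate 2 is the lowest point of every panel.

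The actin-binding and cytoskeletal proteins (7 of 9 genes on the array) had median differences from untreated WKY of 0.47 in SHR, 0.66 in SHRSP, 0.45 in 2K1C and -0.99 in 1K1C. Tagln (SM22 alpha), an actin-bundling protein, read 5.72, 5.09, 5.60 and 5.68 in untreated WKY, 6.66, 6.90, 6.57 and 5.40 in 2K1C and 5.02, 2.64, 6.15 and 6.03 in 1K1C. In SHR it read 4.86, 6.45, 6.52 and 7.18 and in SHRSP 6.11, 6.24, 6.92 and 5.68. Untreated WKY lay within a narrow band, and the 2K1C, SHR and SHRSP means exceeded its mean by 0.86, 0.73 and 0.71, with overlap in each group. Adjusted p-values were 0.407, 0.645 and 0.593.

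Cnn1, calponin 1, which binds actin and slows myosin, read 1.25, 1.77, 2.39 and 0.89 in untreated WKY, 2.18, 2.51, 2.41 and 0.997 in 2K1C and 0.10, -2.35, 1.84 and 1.58 in 1K1C. Its values were -0.13, 2.12, 2.21 and 2.76 in SHR and 1.65, 1.71, 2.39 and 1.26 in SHRSP. The distance of 1K1C replicate 2 and SHR replicate 1 from the other arrays of their groups was wider than the distance between any group means. For 1K1C against 2K1C the difference was -1.73 (SE 0.75, adjusted p = 0.191), and -0.85 without 1K1C replicate 2.

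Smtn (smoothelin), a filament-associated protein of contracting smooth muscle, read 2.68, 4.48, 5.24 and 3.11 in untreated WKY, 5.04, 4.35, 3.73 and 2.94 in 2K1C and 2.47, 1.55, 2.95 and 3.38 in 1K1C. Values of 2.58, 4.03, 4.15 and 4.16 were found in SHR and 3.91, 3.70, 4.25 and 3.45 in SHRSP. Des, the desmin intermediate filament, read 3.33, 5.02, 5.56 and 3.62 in untreated WKY, 4.65, 4.88, 4.60 and 4.11 in 2K1C and 2.68, 0.65, 4.16 and 3.81 in 1K1C, with 2.83, 4.63, 4.58 and 5.26 in SHR and 4.16, 4.29, 5.22 and 3.69 in SHRSP. For both genes untreated WKY replicates 2 and 3 were above replicates 1 and 4, and 1K1C replicate 2 was the lowest array. The means of 1K1C were 0.409 and 0.339 times those of untreated WKY for Smtn and Des (adjusted p = 0.494 and 0.501). As log2 differences these were -1.29 and -1.56; they were -0.94 and -0.84 without 1K1C replicate 2, and -0.31 and -0.65 without untreated WKY replicates 2 and 3. In SHR, SHRSP and 2K1C the differences were between -0.15 and 0.18, and their signs turned under other scalings in most of these cases.

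Lmod1, leiomodin 1, read -0.87, -1.70, -1.24 and -0.35 in untreated WKY, 1.37, 0.62, 0.44 and -0.98 in 2K1C and -1.40, -3.97, -0.32 and -0.12 in 1K1C. It read -1.19, 0.95, 0.87 and 0.93 in SHR and 0.49, 0.54, 1.13 and -0.10 in SHRSP. All SHRSP arrays and 3 of 4 SHR and 2K1C arrays were above untreated WKY. The mean of SHRSP was 2.93-fold that of untreated WKY (adjusted p = 0.28), and that of SHR 2.69-fold (adjusted p = 0.379). Another Lmod1 probe gave smaller differences, 0.46 and 0.28.

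Caldesmon (Cald1), which ties actin to myosin, had 3 probes that disagreed in size for 1K1C against untreated WKY: -0.99 for the brightest and -0.15 and -0.12 for the others, while in SHRSP the 3 gave 0.66, 0.58 and 0.55. In each case the second of these is the dimmest probe. The brightest and the dimmest probe, both on rn4 chromosome 4, plus strand, at chr4:62126457-62126516 and chr4:62148325-62148384, were as follows; no annotation of that build was used here, so their exons are not given.
Cald1 brightest probe: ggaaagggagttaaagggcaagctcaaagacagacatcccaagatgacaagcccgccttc
Cald1 dimmest probe: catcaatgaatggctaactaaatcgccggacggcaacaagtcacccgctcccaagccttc
Nexilin (Nexn), an actin-binding protein, had 1.49, 1.90, 2.39 and 2.09 in untreated WKY and 2.84, 2.69, 3.34 and 2.48 in SHRSP, where all 4 arrays were above the control arrays (log2 difference 0.87 (SE 0.62, adjusted p = 0.507)).

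The regulators of myosin phosphorylation and calcium (6 genes) had median differences from untreated WKY of 0.28 in SHR, 0.63 in SHRSP, 0.29 in 2K1C and -0.67 in 1K1C. Mylk, myosin light chain kinase, read 4.25, 5.99, 6.21 and 4.83 in untreated WKY, 5.67, 5.09, 5.10 and 4.31 in 2K1C and 4.18, 3.06, 4.84 and 4.83 in 1K1C. In SHR it read 4.04, 5.45, 5.53 and 5.33 and in SHRSP 5.04, 5.19, 5.43 and 4.60. Its 2 highest arrays of all were untreated WKY replicates 2 and 3. Its mean was below that of untreated WKY in every other group, by most in 1K1C (-1.09 (SE 0.47, adjusted p = 0.492), and -0.71 without 1K1C replicate 2). With untreated WKY replicates 2 and 3 left out, after the data were seen, the sign turned in SHR (0.55), SHRSP (0.53) and 2K1C (0.50). The 1K1C difference was then -0.31.

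Ppp1r14a (CPI-17), an inhibitor of myosin phosphatase, went with Acta2: 3.54, 2.29, 2.80 and 3.49 in untreated WKY, 4.82, 4.83, 4.29 and 2.97 in 2K1C and 2.71, 0.89, 3.83 and 3.75 in 1K1C. Values in SHR were 2.58, 4.16, 4.19 and 5.08 and in SHRSP 3.91, 3.90, 4.78 and 3.44. In untreated WKY replicates 2 and 3 were the low ones. The 2K1C, SHR and SHRSP means were 2.3, 1.97 and 1.97 times that of untreated WKY (adjusted p = 0.259, 0.515 and 0.444). Of the phosphatase targeting subunits, Ppp1r12a had a difference of -0.72 in 1K1C and Ppp1r12b one of 0.41 (SE 0.19, adjusted p = 0.289) in SHRSP against untreated WKY. Mrvi1 (IRAG), which carries the cyclic GMP signal to the calcium store, had 0.84 (SE 0.52, adjusted p = 0.437) in SHRSP and -0.80 in 1K1C.

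Casq2, calsequestrin 2, the calcium-binding protein of the sarcoplasmic reticulum, read 1.30, 0.76, 1.42 and 0.93 in untreated WKY, 1.97, 2.43, 2.42 and 1.04 in 2K1C and -0.21, -2.22, 2.08 and 2.27 in 1K1C. Its levels were -0.19, 2.48, 2.01 and 2.08 in SHR and 3.18, 2.23, 2.62 and 2.78 in SHRSP. SHRSP replicate 1 was the highest of the 20 arrays, and all 4 SHRSP arrays exceeded the 4 untreated WKY arrays and overlapped the SHR arrays. The SHRSP mean was 3.03-fold that of untreated WKY (2.70 ± 0.40 against 1.10 ± 0.31, SD, n = 4, adjusted p = 0.298) and 2.15-fold that of SHR (adjusted p = 1).

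Among the 3 transcription factors, myocardin and SRF varied with the block and Mkl1 did not. Myocd, the coactivator restricted to cardiac and smooth muscle, read -2.85, -2.95, -2.26 and -2.81 in untreated WKY, -1.27, -2.04, -1.64 and -3.61 in 2K1C and -3.72, -5.72, -2.59 and -2.09 in 1K1C. In SHR it read -3.67, -1.08, -1.29 and -1.85 and in SHRSP -2.28, -2.57, -1.63 and -2.04. The dimmest value was that of 1K1C replicate 2, and groups overlapped throughout. The differences from untreated WKY ran from -0.81 in 1K1C (-0.081 without 1K1C replicate 2) to 0.74 in SHR, with adjusted p from 0.619 to 0.705.

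Srf read 1.88, 2.78, 3.23 and 2.37 in untreated WKY, 3.31, 2.86, 2.74 and 2.48 in 2K1C and 1.90, 1.46, 2.22 and 2.45 in 1K1C. Its values in SHR were 2.03, 2.84, 2.83 and 2.94 and in SHRSP 2.72, 2.78, 3.098 and 2.52. The highest 1K1C array, 2.45, was just below the lowest 2K1C array, 2.48. Srf was 0.559 times as high in 1K1C as in 2K1C (log2 difference -0.84 (SE 0.28, adjusted p = 0.107)). Mkl1, a coactivator that enters the nucleus when actin polymerises, read 0.27, 1.17, 1.24 and 0.92 in untreated WKY, 1.35, 0.61, 0.79 and 1.57 in 2K1C and 0.63, 0.69, 0.56 and 0.78 in 1K1C. It read 0.75, 0.83, 1.07 and 1.04 in SHR and 0.88, 0.90, 0.88 and 1.44 in SHRSP. Levels in 1K1C were nearly equal although the other contractile genes of those arrays were not.

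Because these factors act through the CArG box, the RefSeq promoter windows (GRCr8, 250 bases before to 50 after the start) were searched for it on both strands; 27 members had 29 windows. A box was found in 2 of the 29 windows (6.90%), those of Srf and Cnn2, and in 548 of all 33469 windows (1.64%). A near box, with 1 base of the A and T core changed, was found in 1 member window (3.45%), that of Acta2, against 8.10% of all windows. A match is a description of these letters and not a test of binding, and the windows leave out boxes further away. The stretches of Acta2 and Srf are shown with the boxes or near boxes in capitals. Acta2 is the actin with the larger difference in 2K1C against untreated WKY (1.52, against -0.069 for Actg2). Srf is the factor with the lowest adjusted p in 1K1C against 2K1C. The stretches lie at chr1:241172558-241172657 (minus strand, Acta2) and chr9:21923975-21924044 (plus strand, Srf).
Acta2 promoter: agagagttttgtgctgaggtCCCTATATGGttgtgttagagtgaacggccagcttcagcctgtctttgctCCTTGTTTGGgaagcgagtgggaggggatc
Srf promoter: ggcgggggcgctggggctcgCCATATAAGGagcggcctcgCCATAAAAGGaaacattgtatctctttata
The near boxes of Acta2 start at -134 and -84 and the boxes of Srf at -81 and -61 from the transcription start.

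The adhesion proteins and LIM proteins (8 of 9 genes on the array) had median differences from untreated WKY of 0.57 in SHR, 0.67 in SHRSP, 0.63 in 2K1C and -0.29 in 1K1C. Itga8, the alpha 8 integrin chain through which smooth muscle binds matrix, read 2.08, -1.40, -1.07 and 1.58 in untreated WKY, 3.55, 3.57, 3.25 and 1.73 in 2K1C and 0.30, -2.35, 2.79 and 3.19 in 1K1C. In SHR it read 0.64, 3.52, 3.19 and 3.22 and in SHRSP 3.52, 2.81, 3.30 and 3.20. The lowest arrays were 1K1C replicate 2 and untreated WKY replicates 2 and 3, and all SHRSP arrays were above all untreated WKY arrays. The means of SHRSP, 2K1C and SHR were 7.53-fold, 6.64-fold and 5.08-fold that of untreated WKY, with adjusted p of 0.162, 0.157 and 0.316. As log2 differences these were 2.91, 2.73 and 2.35. They were 1.38, 1.20 and 0.81 when untreated WKY replicates 2 and 3 were left out, a setting added after the data were seen. Without 1K1C replicate 2 and SHR replicate 1, the SHR difference was 3.01 (adjusted p = 0.0417) and the SHRSP difference 2.91 (adjusted p = 0.0416). These arrays were left out because of their low values in the contractile genes, Itga8 among them. That choice by itself raises the SHR mean and narrows the spread within groups, while the SHRSP difference did not change. The p-values of this setting therefore lend no support to a difference in Itga8.

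The other Itga8 probe gave differences of 2.66, 2.89 and 2.03 in SHRSP, 2K1C and SHR, close to those of the tested probe. It lies on rn4 at chr17:86532664-86532723, minus strand, and the tested probe at 86427344 to 86427403 of the same chromosome, so that the probes do not overlap. This probe, well above background on 18 of 20 arrays, is shown as the other reading of the largest difference in the set.
Itga8 other probe: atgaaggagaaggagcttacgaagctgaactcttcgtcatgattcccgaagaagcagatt

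Itga7 read -1.55, 0.51, 0.34 and -0.25 in untreated WKY, -0.54, -0.73, -0.26 and -1.80 in 2K1C and -0.28, 0.37, -0.44 and -0.44 in 1K1C, with 0.50, -0.15, -0.55 and -0.95 in SHR and -0.21, -0.32, -0.49 and -0.99 in SHRSP. The arrays lowest in the other members, 1K1C replicate 2 and SHR replicate 1, were the highest of their groups for Itga7. Actn1, the crosslinker alpha-actinin 1, and Csrp1, a LIM protein of the filament, each had all 4 SHRSP arrays above the untreated WKY arrays, with differences of 0.85 (SE 0.46, adjusted p = 0.367) and 0.77 (SE 0.51, adjusted p = 0.467). Flna, Vcl (vinculin) and Pdlim3 had differences from untreated WKY of 0.51, 0.67 and 0.19 in SHR. Pdlim7 had probes of opposite sign, 0.50 for the tested probe and -0.77 for another in SHR against untreated WKY, so that no direction is given for it.

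Genes of the same pathways that are not members were described from 3 lists. Of the cofactors and repressors of SRF and myocardin, 19 were tested and 0 called in any of 6 comparisons; Hey2, a repressor under Notch control, was at 1.72 (SE 0.75, adjusted p = 0.197) in 2K1C and -1.68 in 1K1C against 2K1C.

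Actin and filament turnover genes of most cells (25 tested, 0 called) had medians of 0.18 in SHR, 0.25 in SHRSP, 0.39 in 2K1C and 0.016 in 1K1C, and -0.31 in 1K1C against 2K1C, where the contractile genes had -1.22. Actn4, a crosslinker of non-muscle cells, had 0.99 (SE 0.34, adjusted p = 0.164) in SHR. Genes of the synthetic smooth muscle state, the migratory and matrix-forming state set against the contractile one, had 15 tested and 0 called, with median differences from the control of 0.46 in SHR, 0.49 in SHRSP, 0.42 in 2K1C and 0.27 in 1K1C. Osteopontin (Spp1) was at 2.77 (SE 1.28, adjusted p = 0.216) in 2K1C and 2.66 in SHRSP, and tenascin C (Tnc) at -2.35 (SE 0.75, adjusted p = 0.131) in SHR.

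Few marker genes of other cells were called. Dermatopontin (Dpt), a fibroblast matrix protein, was higher in SHR (1.62 (SE 0.24, adjusted p = 0.000785)) and in SHRSP (1.28 (SE 0.24, adjusted p = 0.00627)) than in untreated WKY. Peripherin (Prph), a neuronal filament, was lower in both (-3.50 (SE 0.85, adjusted p = 0.0438) and -3.51 (SE 0.85, adjusted p = 0.0349)), as was Gap43, a protein of growing axons (-2.97 (SE 0.70, adjusted p = 0.039) and -3.02 (SE 0.70, adjusted p = 0.0278)). Low values were not confined to these strains. Against the same control arrays the lowest nerve marker was at -2.87 in 2K1C and -3.40 in 1K1C, with 0 called. Of the 7 nerve markers tested, 4 lay below 0 in 2K1C and 5 in 1K1C. The summed nerve signal of untreated WKY itself ran from 28.2 to 117. Ppargc1a, a coactivator of mitochondrial genes listed with brown fat, was lower in SHR (-1.37 (SE 0.32, adjusted p = 0.0351)). No other marker passed the test in the 6 comparisons.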

How the data were processed

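The files hold Agilent single-colour scans (62976 features) of Cy3-labelled artery RNA, 1 for each of 20 biological replicates. Spot intensity values were made by the authors in Agilent Feature Extraction, version 10.7.3.1 according to the submitters' processing notes; background was already subtracted and values are linear, per the file headers. The deposited value table holds the same unscaled signal (largest relative difference 0; array medians 59.7 to 134), so it is linear and uncentred, and values of 1 channel have no direction.

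Each intensity was divided by its array's 75th percentile over spots that were not controls (574 to 1193) and put on a log2 scale. Control spots (4259) and outlier-marked spots (301 to 684 an array) were left out, and 0 spots were saturated. Of 30367 probes after averaging repeated spots, 18899 were kept because every array of some group had them well above background. The brightest kept probe stood for each gene name (16410 genes, named as in the files). A limma model (version 3.58.1, R 4.3.3; lmFit, eBayes, prior df 2.57) over the 5 groups gave two-sided tests, with p-values adjusted by Benjamini and Hochberg's method across genes and called under 0.05. The steps were tested on simulated data. The number of arrays limits the precision, and the labels call the arrays biological replicates.

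1 of the 4 pathway lists is not reported here. Named genes were 15 fixed members, called members and the 2 largest differences in each direction per comparison. For the 13 marker and 4 pathway lists the plan was to name called members (at most 4) or the largest difference. It was not followed throughout. Marker lists without a called member have no gene named on this ground, and Actn4 and Tnc were not the largest of their lists. The list of Actn4 reached -1.11 in 1K1C against untreated WKY. The Pdlim3, Vcl, Flna, Nexn, Actn1, Csrp1, Cald1, Pdlim7, Mrvi1, Tpm1, Tpm2, Myl6, Ppp1r12a and Ppp1r12b members were added for their role, probes or overlap, some after their values were seen. The members and lists were chosen with earlier results of these data known. Median differences over members are descriptions with no test. Replicate numbers were not used to pair arrays in the main model. Alternatives were other normalizations, filters and probes, fits of 2 groups, a replicate block and leaving out arrays.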

Additional observations from a re-analysis of the deposited data

Results flagged for a closer look

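Of 160 sets of 4 arrays examined (each contractile gene and their median, in each group), 19 (11.9%) had 1 array far from the other 3, by Dixon's test at the 95% level. Chance gives about 1 in 20 for independent sets. These sets are not independent, because the genes move together on the same arrays, so the share is no measure of an excess over chance. SHR replicate 1 accounted for most of the flagged sets. Its median over the contractile genes was -1.03, the other SHR arrays having 0.55 to 0.74. Its level was 4.93 for Myh11, 2.58 for Smtn, -1.19 for Lmod1, 4.04 for Mylk, 1.32 for Cald1 and 2.03 for Srf, below the other SHR arrays in each case. It was also low for Actn1 (0.30), Flna (2.23), Vcl (0.99), Itga8 (0.64), Pdlim3 (-0.997), Ppp1r12a (-2.31) and Mrvi1 (2.13). In the same array white adipocyte markers had a median of 1.17 and mesothelium markers 2.83, the highest of the SHR group; their part in the low values was not tested.

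Replicate 4 of 2K1C, where lymphocyte markers had a median of 6.38 (their part was not tested), was low for Tpm1 (4.85, others 5.92 to 6.11), Flna (2.63, others 3.95 to 4.09) and Csrp1 (3.87, others 4.97 to 5.05). SHRSP replicate 4 was high for Mkl1 (1.44, others 0.88 to 0.90), and SHRSP replicate 3 was high for Ppp1r12a (-0.33, others -1.36 to -1.26).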

How the results depend on the processing

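Counts of called members were 0 under every setting of 2K1C and 1K1C against untreated WKY, of SHRSP against SHR and of the F test. Where another setting called members, the share of all genes it called is not given here, so those counts have no background beside them. With only the 2 groups compared in the fit, 1 member was called in SHRSP against untreated WKY (Casq2). Without 1K1C replicate 2 and SHR replicate 1, left out after their values were seen, 3 were called in SHR and 1 in SHRSP (Itga8) against untreated WKY, and 0 in the other comparisons. Leaving out single arrays gave 0 to 2 called in 1K1C against 2K1C (2 without 1K1C replicate 4) and 0 in the others. The median difference then ranged from 0.22 to 0.87 in SHR, 0.28 to 0.60 in SHRSP, 0.29 to 0.79 in 2K1C and -0.96 to -0.15 in 1K1C against untreated WKY, from -0.31 to 0.29 in SHRSP against SHR and from -1.54 to -0.65 in 1K1C against 2K1C. Relative to the contractile median of each array, a setting added after the data were seen, the last was -0.040, a value near 0 that the setting's own construction fixes and that says nothing about the result. Without untreated WKY replicates 2 and 3, also added then, all 31 members lay above 0 in SHR, SHRSP and 2K1C against untreated WKY, with 0 called. Across 5 scalings the medians kept their sign; in SHRSP against SHR they ran from 0.011 to 0.28. Of single-gene differences, 1756 kept their sign and call, 177 turned sign without a call, 5 became called and 0 reversed a call. These counts include the setting relative to the contractile median, which can turn signs by its construction alone. Size was not part of this count: Itga8 in 1K1C against 2K1C ran from -2.78 to -0.86. The -0.86 came from that same setting, and without 1K1C replicate 2 the difference was -0.93. With the replicate number as a block, 0 members were called in all comparisons and the median in 1K1C against 2K1C stayed at -1.22. Same-numbered arrays correlated at -0.37 to 0.57 over the 6 comparisons. The range was -0.37 to -0.053 in SHR and 0.023 to 0.23 in SHRSP against untreated WKY, so whether the numbers pair arrays cannot be told. Scaling changed the balance of calls in SHR against untreated WKY, 137 higher and 166 lower in the main setting against 221 and 119 with array medians and 202 and 133 after quantile normalization; without scaling the split in SHRSP was 143 and 64 against 189 and 204. Signal over background limits Myocd, whose probe was well above background on 19 of 20 arrays.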

Other observations

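In untreated WKY, replicates 2 and 3 stood apart from replicates 1 and 4 in more than contractile genes. Rgs5, a regulator of G protein signalling found in pericytes, read -0.036, 2.11, 2.75 and 0.36 for replicates 1 to 4, and Kcnj8, a potassium channel subunit of mural cells, 1.56, 3.48, 3.82 and 1.97. Kit, the receptor of pacemaker cells of gut muscle, read -4.37, -2.90, -2.56 and -3.84, and Msln, a mesothelium marker, -2.91, 2.69, 1.46 and -2.59. Pdgfrb, another mural cell receptor, was the other way round at 0.78, -0.58, -0.998 and 1.16. These 5 genes were chosen after their values were seen.

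Among genes outside the list, those closest to the contractile median over the 20 arrays, group means removed, were Leprel1 (0.98), Dact3 (0.98), Tspan2 (0.98), Asb2 (0.97) and Fbxl22 (0.97). Pde5a, the phosphodiesterase that breaks down cyclic GMP in vascular smooth muscle, and Kcnmb1, the beta subunit of its large-conductance potassium channel, both had 0.96. They were ranked by these same values, and the correlations carry no test.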
